A study of Mus musculus with 6 samples.

Results

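The nuclear genes for respiratory complexes II, III and IV, cytochrome c and ATP synthase were followed in gastrocnemius, the large and mostly fast-fibred muscle of the calf, of mice aged 26 months. The genes were taken by symbol: Sdha to Sdhd, all symbols that begin with Uqcr, Cyc1, Cycs, 7 named Cox genes and all symbols that begin with Atp5. The rule found 38 of the 23238 gene symbols in the count tables, and it used no measured value. The mice were wild-type C57/BL6J, with no engineered allele named in the labels, and received farnesol at 350 mg/kg or vehicle by mouth for 30 days. Farnesol is an isoprenoid alcohol, and its farnesyl group is the lipid that cells attach to some proteins. The vehicle was saline with DMSO, which the farnesol mice received too. Each group had 3 libraries of 3′ tag sequencing (Lexogen QuantSeq, total RNA). The study's title names the farnesylation of PARIS, a repressor of the mitochondrial coactivator PGC-1α encoded by Zfp746.

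Complex II oxidises succinate and passes its electrons to ubiquinone. Complex III hands electrons from ubiquinol to cytochrome c while protons cross the inner membrane, and complex IV gives them to oxygen and pumps more protons. ATP synthase lets the protons flow back through a ring of c subunits, whose turning drives ATP formation in the F1 head. Complex II is made from nuclear genes alone, while complexes III and IV and ATP synthase each combine nuclear subunits with subunits encoded in mitochondrial DNA. The mitochondrially encoded subunits were not analysed here. Skeletal muscle has high and variable demand for ATP, and its fibre types differ in how much they hold of these complexes.

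The libraries held 10231046, 12707751 and 9895700 counts after farnesol and 11058539, 10931849 and 10354759 counts after vehicle. Farnesol library 1 stood apart. The ribosomal RNA precursor Rn45s took 4.97% of its counts, against 14.8% and 14.2% in the other farnesol libraries and 9.92% to 15.4% in the vehicle libraries. In that library the deviation of a gene from its mean over all libraries was inversely related to transcript length across genes (Spearman's rho = -0.25, a description, since genes are not independent), against 0.01 and 0.05 in the other farnesol libraries and 0.02 to 0.09 after vehicle. The counts and medians of each group of genes are therefore given with and without it. Markers of skeletal fibre defined the tissue: Myh4, the fast myosin heavy chain, averaged 49198 CPM after farnesol and 54822 CPM after vehicle. CPM are counts scaled to a common library size, here with edgeR's TMM factors.

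The transcripts of these complexes stood slightly higher after farnesol as a group, and no single gene passed the test. All 38 members passed the filter on low counts, and 34 of them (89.5%) had a log2 fold change above 0, against 49.1% of the 11674 genes tested. Their median log2 fold change was 0.21, beside -0.01 over all genes tested. edgeR's quasi-likelihood test with Benjamini-Hochberg adjustment called 0 of 11674 genes (0%), and therefore no member; every member had an adjusted p of 1. DESeq2 and limma-voom also called 0 genes. At an unadjusted p under 0.05 it listed 351 genes: 1.75% of all genes tested were higher and 1.26% lower after farnesol. The same limit held 5 members (13.2%), all higher: Uqcr10, Atp5j2, Uqcrq, Cox7b and Atp5j. A total of 35 genes outside the set had a smaller p than any member.

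In 12 members (31.6%) all 3 farnesol libraries lay above all 3 vehicle libraries, a pattern found in 4.75% of genes tested. These were Sdhb, Uqcr10, Uqcrq, Uqcrh, Cox5a, Cox7b, Atp5e, Atp5f1, Atp5o, Atp5j2, Atp5l and Atp5g1. The opposite order, with all farnesol libraries below, was seen in 4.07% of genes and in 0 members. Without farnesol library 1 the median of the members was 0.10, beside 0.00 over all genes, and 32 members (84.2%) were above 0 against 49.4% of genes. Both remaining farnesol libraries lay above all vehicle libraries in the same 12 members (31.6%), against 9.26% of genes, but no member then had an unadjusted p under 0.05. In 2 members (5.26%) both lay below all vehicle libraries, against 8.56% of genes. Counts and medians of the set describe it and are not a test of it, since the members share libraries and are not independent.

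**Figure D1:**
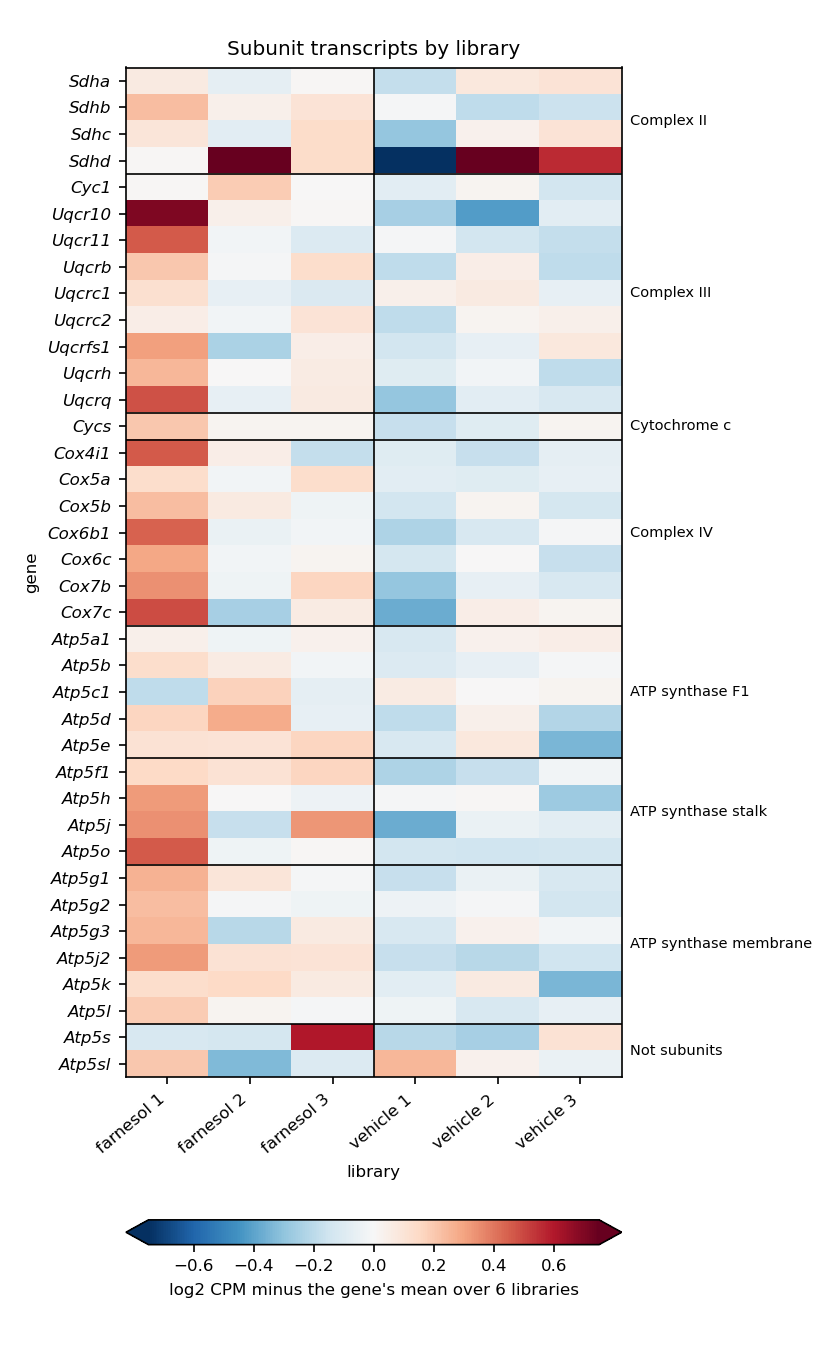
Each row is 1 of the 38 genes, grouped by complex, and each column 1 library, with farnesol libraries on the left; colour is log2 CPM minus the gene's own mean over the 6 libraries, and values beyond the ends of the scale, such as that of Sdhd in vehicle library 1, take the end colour. Farnesol library 1 is the highest library for 24 genes and vehicle library 1 the lowest for 15 genes.

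Farnesol library 1 held the highest value of 24 members, and the other farnesol libraries that of 4 and 6. After vehicle, libraries 1, 2 and 3 held the highest value of 1, 1 and 2 members. Vehicle library 1 was the lowest in 15 members. The members together took 1.64%, 1.17% and 1.26% of counts after farnesol and 1.08%, 1.10% and 1.36% after vehicle, so the group ranges overlapped. Averaged over the members, log2 CPM deviated from the gene means by 0.22, 0.01 and 0.05 after farnesol and by -0.19, -0.03 and -0.07 after vehicle. On this scale the groups did not overlap, but farnesol library 2 at 0.01 and vehicle library 2 at -0.03 lay close. Farnesol library 1 and vehicle library 1 lay furthest apart, and the mean of vehicle library 1 includes Sdhd, which deviated by -2.41 there.

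**Figure D2:**
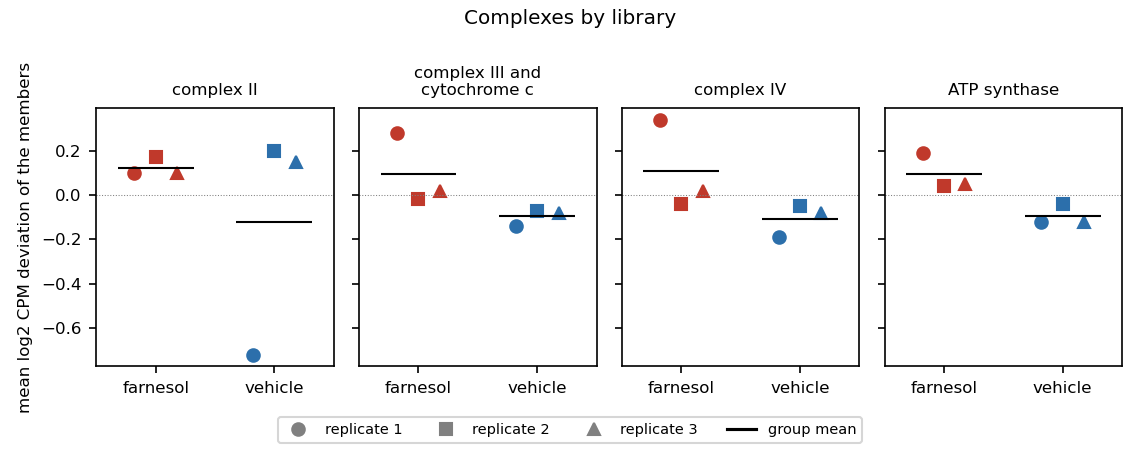
Each panel shows 1 complex and each point 1 library, with log2 CPM deviation averaged over the genes of that complex on the vertical axis and a bar at the group mean. Farnesol library 1 (circle, left) lies highest for complex IV at 0.34 and for complex III with cytochrome c at 0.28, and vehicle library 1 (circle, right) lies at -0.72 for complex II, or at -0.16 without Sdhd, which alone deviates by -2.41 there.

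In complex II 3 of 4 genes were above 0, with a median log2 fold change of 0.12 (0.13 without farnesol library 1) and 0 genes at an unadjusted p under 0.05. Sdhb, the iron-sulphur subunit (chr4:140961271-140979198, mm10, plus strand), had 914, 798 and 831 CPM after farnesol, against 772, 680.3 and 696 CPM after vehicle. The lowest farnesol library lay just above the highest vehicle library. Its log2 fold change was 0.24 (SE 0.15, edgeR unadjusted p = 0.113, adjusted p = 1). Sdhc, a membrane anchor that helps to bind ubiquinone, had 261, 233 and 271 CPM after farnesol and 201, 252 and 264 CPM after vehicle. The Sdhc groups overlapped and only vehicle library 1 stood low (log2 fold change 0.10, SE 0.15, edgeR unadjusted p = 0.534, adjusted p = 1). Sdha, the flavoprotein that oxidises succinate, had 261, 238 and 250.3 CPM after farnesol and 219.8, 264 and 267 CPM after vehicle. Its groups overlapped fully, with a log2 fold change of 0.00 (SE 0.15, edgeR unadjusted p = 0.981, adjusted p = 1).

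Sdhd, the other membrane anchor (chr9:50596340-50603849), was described after its values were seen. It had 19.7, 34.4 and 21.7 CPM after farnesol, against 3.55, 36.2 and 29.0 CPM after vehicle. Vehicle library 1 held 37 counts of it, while the other 5 libraries held 210 to 411 counts. The group means, 25.3 ± 7.96 CPM after farnesol and 22.9 ± 17.2 CPM after vehicle (SD, n = 3 each), differed by less than their spread. The fold change was 1.10 with a 95% interval of 0.245 to 4.98, the widest of the set. Without vehicle library 1 the median log2 fold change of complex II was -0.05, with Sdha at -0.09, Sdhc at -0.01 and Sdhb at 0.30. Vehicle library 1 was the lowest library of Sdha and Sdhc as well. At 19.6 CPM per kilobase of transcript, averaged over all libraries, Sdhd was also far lower than Sdhb at 685, Sdha at 86.2 and Sdhc at 77.9. Since 1 tag per transcript need not scale with length, the order per kilobase is a description.

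Complex III had 8 of 9 genes above 0 and a median log2 fold change of 0.21. With farnesol library 1 left out these were 7 of 9 and 0.13, and with a correction for transcript length 8 of 9 and 0.08. The 2 genes of the complex at an unadjusted p under 0.05 both encode small subunits without a redox centre. Uqcr10 (chr11:4701968-4704344, minus strand), which sits beside the iron-sulphur and cytochrome c1 subunits, had 286, 182 and 178 CPM after farnesol, against 149, 131 and 167 CPM after vehicle. All farnesol values lay above all vehicle values, and farnesol library 1 lay far above the other farnesol libraries. The means were 215 ± 61.2 CPM after farnesol and 149 ± 17.7 CPM after vehicle (SD, n = 3 each), a log2 fold change of 0.53 (SE 0.18, edgeR unadjusted p = 0.00742, adjusted p = 1), the highest of the members. Without farnesol library 1 it was 0.27, with a correction for transcript length 0.35, and with both 0.20.

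Uqcrq (chr11:53427922-53430831, minus strand), a small subunit that contacts the cytochrome b of the complex, had 611, 421 and 462 CPM after farnesol and 360.4, 415 and 404 CPM after vehicle. The groups did not overlap, but farnesol library 2 and vehicle library 2 were almost level (log2 fold change 0.34, SE 0.16, edgeR unadjusted p = 0.0432, adjusted p = 1; log2 fold change 0.17 without farnesol library 1). Uqcrc1, a core protein that faces the matrix, had 391, 346 and 334 CPM after farnesol and 371, 377 and 347 CPM after vehicle. It gave the lowest fold change of the complex, -0.03 on the log2 scale (SE 0.14, edgeR unadjusted p = 0.822, adjusted p = 1), and its groups overlapped.

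The remaining complex III genes had log2 fold changes of 0.08 to 0.25 with overlapping groups, except Uqcrh. The hinge protein Uqcrh averaged 460.1 CPM after farnesol and 398 CPM after vehicle, the second core protein Uqcrc2 457 and 430.5, and the Rieske iron-sulphur protein Uqcrfs1 266 and 249. Cyc1, which is cytochrome c1, averaged 157 CPM after farnesol and 143 CPM after vehicle. The small subunits Uqcrb and Uqcr11 averaged 222 and 114 CPM after farnesol, against 191 and 96.3 CPM after vehicle. Cycs, the mobile cytochrome c that carries electrons to complex IV, had 207, 181 and 182 CPM after farnesol and 159, 168 and 182 CPM after vehicle, a log2 fold change of 0.16 (SE 0.15, edgeR unadjusted p = 0.277).

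**Figure D3:**
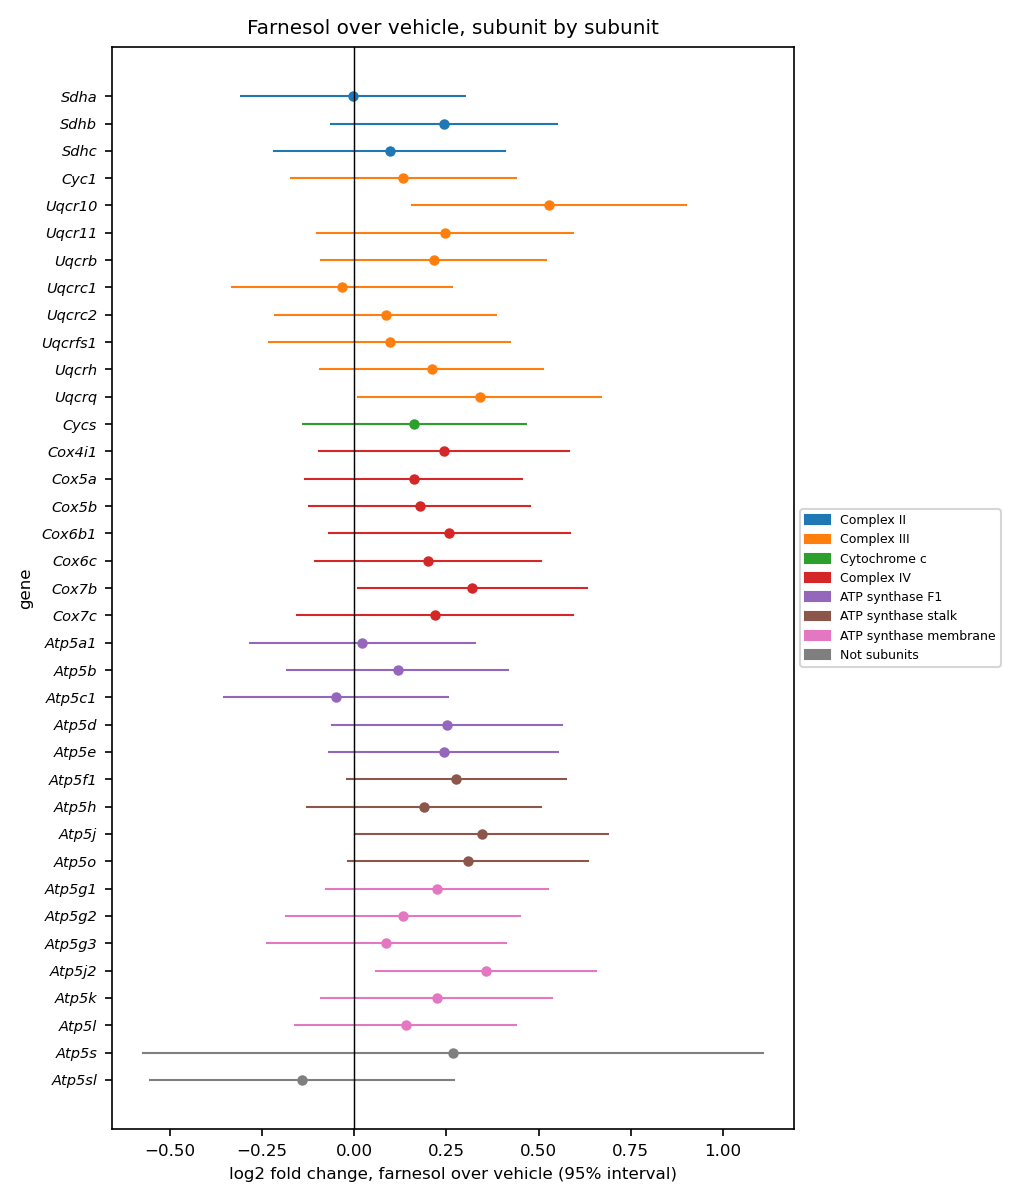
Points are log2 fold changes of farnesol over vehicle and lines their 95% intervals from edgeR, coloured by complex, for 37 genes; Sdhd is left out because its interval, 0.245-fold to 4.98-fold, would set the scale. All but 4 of the 38 genes lie above 0, and the lines of most cross 0.

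All 7 complex IV genes were above 0, with log2 fold changes of 0.16 to 0.32 and a median of 0.22. The number above 0 was 6 and the median 0.10 without farnesol library 1, and with a correction for transcript length 7 and 0.08. All encode supernumerary subunits that surround the mitochondrially encoded catalytic core. Cox7b (chrX:106015700-106022450, plus strand) had 318, 246 and 281 CPM after farnesol, against 205, 241 and 231 CPM after vehicle. Its groups did not overlap, with farnesol library 2 just above vehicle library 2. Its log2 fold change was 0.32 (SE 0.15, edgeR unadjusted p = 0.0443, adjusted p = 1). Cox4i1, the widely expressed isoform of the subunit that takes part in allosteric control by ATP, had 735, 549 and 470.0 CPM after farnesol and 501, 472 and 508 CPM after vehicle. It had the highest mean level of the 7, and its groups overlapped (log2 fold change 0.24, SE 0.16, edgeR unadjusted p = 0.150, adjusted p = 1). Cox6b1, which joins the monomers of the dimer on the intermembrane side, had 398, 283 and 289 CPM after farnesol and 249.7, 270.1 and 291 CPM after vehicle. Only farnesol library 1 lay clear of the vehicle libraries (log2 fold change 0.26, SE 0.16, edgeR unadjusted p = 0.116, adjusted p = 1). Without farnesol library 1 the log2 fold changes of Cox4i1 and Cox6b1 were 0.04 and 0.08.

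Cox5a, a matrix-side subunit, had 415, 374 and 416 CPM after farnesol and 359, 356 and 364 CPM after vehicle. Its groups did not overlap although its fold change was the lowest of the complex (log2 0.16, SE 0.14, edgeR unadjusted p = 0.267, adjusted p = 1). The zinc-binding subunit Cox5b averaged 332 CPM after farnesol and 294 CPM after vehicle, and Cox6c averaged 381 and 332. Cox7c had 270.4, 161 and 201 CPM after farnesol and 149, 199 and 196 CPM after vehicle. The tables also list Gm10012 at 185 CPM after farnesol and 147 CPM after vehicle and Gm12338 at 271 and 223. Over the last 300 bases of the transcript, Cox7c has copies at both loci with at least 95% identity over at least 75 bases, so the split of reads among the 3 is uncertain. Their sum was 667 ± 192 CPM after farnesol and 551 ± 86.5 CPM after vehicle (SD, n = 3 each), and the groups overlapped (two-sided exact permutation p = 0.4; the smallest p that 3 against 3 allows is 0.1).

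**Figure D4:**
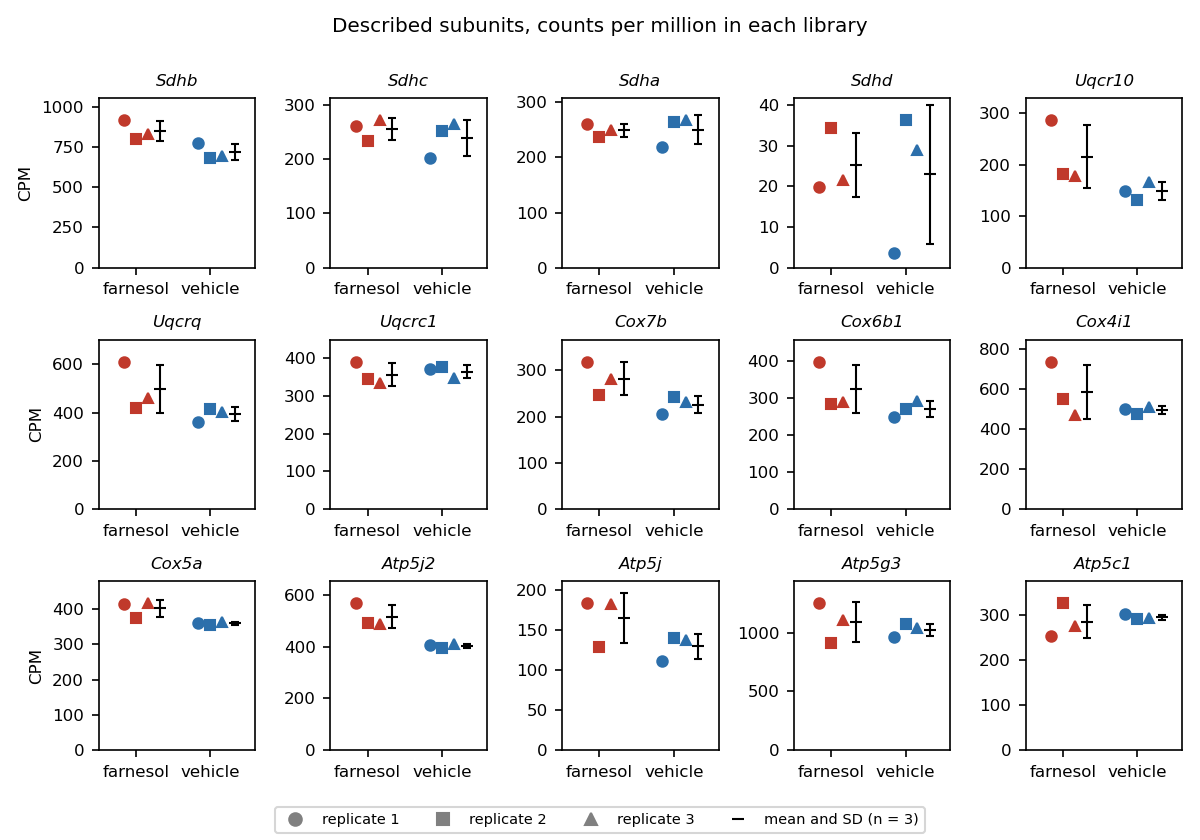
Each panel gives CPM of 1 gene in each library, farnesol on the left and vehicle on the right, with marker shape for replicate and a bar for mean and SD (n = 3); axes start at 0. Uqcr10 and Atp5j2 show separated groups, Sdha overlapping ones, and Sdhd a single vehicle library at 3.55 CPM.

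ATP synthase had 14 of 15 genes above 0 and a median log2 fold change of 0.22, which was 0.13 without farnesol library 1 and 0.09 with a correction for length. By part, the median was 0.12 over 5 genes of the F1 head, 0.29 over 4 genes of the peripheral stalk and 0.18 over 6 genes of the membrane part with the c ring. The medians of the 3 parts were 0.08, 0.20 and 0.11 without farnesol library 1, and the differences between parts were not tested. In the F1 head, the α subunit Atp5a1 averaged 1033 CPM after farnesol and 1017 CPM after vehicle, and the catalytic β subunit Atp5b 799.7 and 737. The δ subunit Atp5d averaged 287 CPM after farnesol and 241 CPM after vehicle, and the ε subunit Atp5e averaged 287 and 242. Atp5c1, the γ subunit that forms the central shaft, had 255, 327 and 276 CPM after farnesol and 302, 291 and 294 CPM after vehicle. Its farnesol values lay on both sides of all vehicle values, with the lowest fold change of the enzyme (log2 -0.05, SE 0.15, edgeR unadjusted p = 0.740, adjusted p = 1).

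All 4 genes of the peripheral stalk, which holds the head still, were above 0. Atp5j, coupling factor F6 (chr16:84827871-84835857, minus strand), had 184, 129 and 183 CPM after farnesol and 112, 141 and 137 CPM after vehicle. Farnesol library 2 lay within the vehicle range, while the other farnesol libraries lay above it (log2 fold change 0.35, SE 0.17, edgeR unadjusted p = 0.0490, adjusted p = 1). Atp5j overlaps Gabpa on the opposite strand, which was listed at 6.57 CPM after farnesol and 6.60 CPM after vehicle. Atp5o, the oligomycin sensitivity protein that caps the head, had 753, 537 and 550.0 CPM after farnesol and 496, 493 and 496 CPM after vehicle. The b subunit Atp5f1 had 271, 263 and 274 CPM after farnesol and 209, 217 and 240.3 CPM after vehicle. Both showed separated groups, with log2 fold changes of 0.31 (SE 0.16, edgeR unadjusted p = 0.0613) and 0.28 (SE 0.14, edgeR unadjusted p = 0.0655). They were 0.13 for Atp5o and 0.27 for Atp5f1 without farnesol library 1. The d subunit Atp5h had 437, 349.5 and 341 CPM after farnesol and 347, 352 and 289.9 CPM after vehicle, with overlapping groups.

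In the membrane part, Atp5j2, the f subunit (chr5:145183704-145191541, minus strand), had 567, 491 and 489 CPM after farnesol and 405, 393 and 409.6 CPM after vehicle. Its groups were well separated, at 515 ± 44.8 CPM after farnesol against 402 ± 8.60 CPM after vehicle (SD, n = 3 each). Its log2 fold change was 0.36 (SE 0.14, edgeR unadjusted p = 0.0213, adjusted p = 1), and it was 0.28 without farnesol library 1 and 0.27 with a correction for length. The e subunit Atp5k and the g subunit Atp5l, which help to hold dimers of the enzyme together, averaged 212 and 179 CPM after farnesol, against 182 and 162 CPM after vehicle.

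The c ring is built from 1 mature protein encoded by 3 genes with different import signals. Atp5g3 had 1249, 910.0 and 1104 CPM after farnesol and 966, 1069 and 1036 CPM after vehicle, the highest mean level of the members also per kilobase of transcript (1460.2 CPM per kilobase over all libraries). Its groups overlapped, with 1 farnesol library below all vehicle libraries (log2 fold change 0.09, SE 0.16, edgeR unadjusted p = 0.584, adjusted p = 1). Atp5g1 had 320.3, 284 and 265 CPM after farnesol and 239, 259 and 247 CPM after vehicle. Atp5g2 had 121, 102 and 101 CPM after farnesol and 100.3, 102 and 93.3 CPM after vehicle. The Atp5g1 groups did not overlap and the Atp5g2 groups did, with log2 fold changes of 0.22 and 0.13.

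As shares of the counts of the 3 genes, Atp5g3 held 73.1% ± 2.56 after farnesol and 74.7% ± 0.637 after vehicle, Atp5g1 19.6% ± 2.03 and 18.1% ± 0.185, and Atp5g2 7.30% ± 0.530 and 7.21% ± 0.454 (SD, n = 3 each). The differences were smaller than the spread after farnesol, with two-sided exact permutation p of 0.4, 0.3 and 0.8 for the 3 genes.

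The rule also takes Atp5s and Atp5sl, which by current knowledge are not subunits of ATP synthase; RefSeq names them Dmac2l and Dmac2, and the human counterpart of Dmac2 takes part in complex I assembly. Atp5s had 3.88, 3.85 and 6.50 CPM after farnesol and 3.64, 3.54 and 4.58 CPM after vehicle. Atp5sl had 35.3, 24.4 and 28.7 CPM after farnesol and 36.4, 31.4 and 29.6 CPM after vehicle. Both overlapped between groups, with log2 fold changes of 0.27 (SE 0.41) and -0.14 (SE 0.20). Without them 33 of 36 subunit genes were above 0.

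Members with short transcripts had the higher median. The split, at 1000 nucleotides, was chosen after the data were seen. Lengths are those of the longest principal transcript, which need not be the form expressed. Atp5g1 was classed as longer at 4715 nucleotides, more than its RefSeq gene span of chr11:96072793-96075694. All 19 shorter members were above 0 with a median log2 fold change of 0.22, and 15 of the 19 longer ones were, with a median of 0.13. Over all genes tested the corresponding medians were 0.12 for shorter and -0.02 for longer transcripts, so the same order was seen outside the members. Over the members alone, Spearman's rho of deviation with transcript length was -0.41 in farnesol library 1 and 0.55 in vehicle library 3. It was -0.10 and -0.04 in the other farnesol libraries and -0.13 and 0.07 in the other vehicle libraries, again a description. Without farnesol library 1 the medians were 0.10 for both classes of members and 0.05 for all shorter genes. With a per-library correction for transcript length they were 0.08 and 0.09. A correction made without farnesol library 1 gave 0.07 and 0.11. The part of the Rn45s share of farnesol library 1 in these values was not tested.

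**Figure D5:**
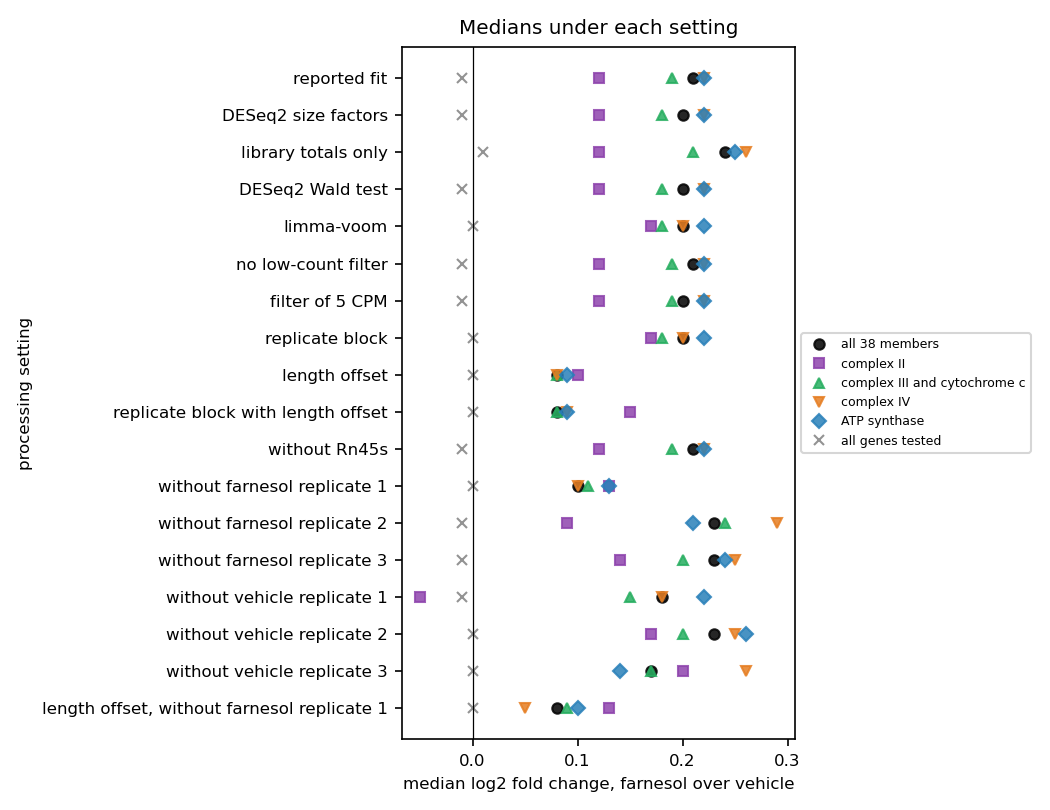
Each row is 1 way of processing and each symbol the median log2 fold change of a complex, of all 38 members (37 with the filter of 5 CPM, which Atp5s does not pass) or of all genes tested. The median of all members lies between 0.08 and 0.24 in every row and that of all genes between -0.01 and 0.01; complex II is below 0 without vehicle library 1.

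Promoters were searched for letters that nuclear respiratory factors and their partners are known to bind. RefSeq promoters of GRCm38.p6, from 250 bases before the start to 50 after it, were matched for 30 members, with 34 promoters. The NRF1 letters GCGCATGC, searched like the others on both strands and able to overlap their own match on the opposite strand, were found in 7 of 34 (20.6%), against 2.71% of 32851 promoters of all genes. The ETS letters CCGGAAG, which GABP can bind, were found in 10 (29.4%), against 8.86%. The YY1 letters AAGATGGC were found in 5 (14.7%), against 2.75%, and the ERR letters AAGGTCA in 5 (14.7%), against 4.72%. The 5 promoters with YY1 letters belong to 4 genes. Of these, Atp5sl, which is not a subunit gene, has 2 overlapping promoters that share the same YY1 match. Of the 30 members with a promoter, 16 carried NRF1, ETS or YY1 letters and 14 carried none of them. Median GC content was 58.2% in the members' promoters and 52.7% in all. The 4 promoters below, all from carriers, show where the letters lie in the 100 bases before the start, and capitals mark NRF1 letters, or in Atp5j the YY1 letters and then the ETS letters.
Cycs, chr6:50566570-50566669, minus strand: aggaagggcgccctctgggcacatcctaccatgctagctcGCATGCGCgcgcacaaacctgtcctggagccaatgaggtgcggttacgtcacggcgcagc
Sdhb, chr4:140961171-140961270, plus strand: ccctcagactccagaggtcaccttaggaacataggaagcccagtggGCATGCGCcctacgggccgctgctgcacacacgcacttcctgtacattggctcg
Atp5k, chr5:108434400-108434499, minus strand: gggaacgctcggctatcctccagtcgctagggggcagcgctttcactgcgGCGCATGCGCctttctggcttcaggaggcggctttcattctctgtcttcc
Atp5j, chr16:84834977-84835076, minus strand: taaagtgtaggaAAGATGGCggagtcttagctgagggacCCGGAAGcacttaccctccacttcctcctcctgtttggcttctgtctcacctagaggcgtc

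The 16 members with NRF1, ETS or YY1 letters had a median log2 fold change of 0.22, and the 14 with a promoter but none of these letters had a median of 0.20. Leaving out farnesol library 1 gave 0.11 and 0.12. Among the shown genes, Sdhb, Cycs, Atp5k and Atp5j had log2 fold changes of 0.24, 0.16, 0.22 and 0.35. A match describes letters in a window and does not show that a factor binds there.

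Other genes of the same pathway were also mostly above 0. Of the assembly factors, 2 of 3 tested for complex II, 5 of 6 for complex III and 20 of 23 for complex IV were above 0, with median log2 fold changes of 0.19, 0.22 and 0.20. For ATP synthase 6 of 6 genes on the assembly and control list were above 0, with a median of 0.20. That list includes Usmg5 and 2010107E04Rik, which encode small subunits of the enzyme outside the rule (log2 fold changes 0.34 and 0.26). When farnesol library 1 was left out, the numbers above 0 were 2, 4, 17 and 6 and the medians 0.03, 0.12, 0.13 and 0.13 for these 4 lists, in the same order. The ATPase inhibitor Atpif1 had 39.9, 28.4 and 23.4 CPM after farnesol and 22.0, 20.8 and 17.7 CPM after vehicle, with groups that did not overlap (log2 fold change 0.60, SE 0.22, edgeR unadjusted p = 0.0130, adjusted p = 1; log2 fold change 0.36 without farnesol library 1). Uqcc1, a complex III assembly factor, had 52.0, 56.4 and 55.4 CPM after farnesol and 36.8, 39.4 and 49.9 CPM after vehicle (log2 fold change 0.38, SE 0.17, edgeR unadjusted p = 0.0422, adjusted p = 1). Coa6, which helps to insert copper into complex IV, averaged 8.96 CPM after farnesol and 5.55 CPM after vehicle (log2 fold change 0.69, SE 0.33, edgeR unadjusted p = 0.0440, adjusted p = 1).

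Of the complex IV subunit isoforms outside the rule, 8 of 9 tested were above 0, with a median log2 fold change of 0.26. Leaving out farnesol library 1 gave 7 of 9 and 0.14. The muscle isoform Cox8b had 330.5, 250.5 and 193 CPM after farnesol and 165, 204 and 147 CPM after vehicle, and farnesol library 3 lay within the vehicle range (log2 fold change 0.59, SE 0.18, edgeR unadjusted p = 0.00417, adjusted p = 1). The muscle isoform Cox7a1 had 282, 169 and 172 CPM after farnesol and 149, 148 and 149 CPM after vehicle. Its groups did not overlap, and farnesol library 1 again stood highest (log2 fold change 0.48, SE 0.18, edgeR unadjusted p = 0.0138, adjusted p = 1). Without that library the log2 fold changes were 0.37 for Cox8b and 0.19 for Cox7a1.

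Of the regulators of these genes 8 of 13 were above 0, the median log2 fold change was 0.03 (0.07 without farnesol library 1), and 0 had an unadjusted p under 0.05. Ppargc1a and Zfp746 are named for the study's title. Ppargc1a, which encodes PGC-1α, averaged 96.4 CPM after farnesol and 93.2 CPM after vehicle. Zfp746, which encodes PARIS, had 5.99, 2.85 and 5.06 CPM after farnesol and 4.70, 2.33 and 6.78 CPM after vehicle, a log2 fold change of 0.00 (SE 0.45). The interval of its fold change, 0.527 to 1.90, was wide. Among the 3 regulators of smallest p, Esrrg, Tfam and Gabpb1 had log2 fold changes of 0.39, -0.28 and 0.63, with unadjusted p of 0.145, 0.202 and 0.311 by edgeR.

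Markers of other cell types also differed between the libraries, and none passed the adjusted threshold. White adipocyte markers were above 0 in 8 of 8 genes (median log2 fold change 0.66) and summed to 240 to 382 CPM after farnesol and 190 to 324 CPM after vehicle. Brown adipocyte markers were above 0 in 4 of 5 tested (median 0.10), with sums of 259.7 to 380.0 CPM after farnesol and 192 to 280.3 CPM after vehicle. Of these, Ucp1 was listed at 0 in all 6 libraries, while Cidea averaged 2.68 CPM after farnesol and 1.04 CPM after vehicle without overlap (log2 fold change 1.34, edgeR unadjusted p = 0.0616). Cox8b, described above as a muscle isoform, is on this list too and made up most of each sum. It had 330.5, 250.5 and 193 CPM after farnesol and 165, 204 and 147 CPM after vehicle. The sums of this list therefore do not measure brown adipocytes. Erythroid markers were above 0 in 5 of 6 (median 0.49), with sums of 5472 to 9725 CPM after farnesol and 3500 to 5683 CPM after vehicle; farnesol library 1 had the highest sum of both lists. Macrophage markers were below 0 in 8 of 8 (median -0.25), with sums of 119 to 164 CPM after farnesol and 99.6 to 230.3 CPM after vehicle. Slow fibre markers, whose fibres are rich in mitochondria, were above 0 in 9 of 9 (median 0.23), with sums of 4639 to 6086 CPM after farnesol and 3786 to 6037 CPM after vehicle. This list includes Myh2, a myosin of fast oxidative fibres, so its sums do not measure slow fibres alone. Myh2 had 2730, 3158 and 3668 CPM after farnesol and 3046, 3907 and 2294 CPM after vehicle. Fast fibre and general muscle markers were above 0 in 6 of 8 (median 0.08), with sums of 140204 to 152972 CPM after farnesol and 110429 to 166300 CPM after vehicle. Without farnesol library 1 the medians were 0.42 for white adipocyte, 0.27 for brown adipocyte, 0.33 for erythroid, -0.36 for macrophage, 0.33 for slow fibre and 0.01 for fast fibre and general muscle markers. The numbers above 0 were then 7 of 8, 4 of 5, 5 of 6, 1 of 8, 9 of 9 and 4 of 8. Fibroblast markers were above 0 in 5 of 5 (median 0.15), endothelial ones in 3 of 4 (median 0) and Schwann cell ones in 4 of 4 (median 0.10). Leaving out farnesol library 1 gave 5 of 5 (median 0.27), 1 of 4 (median -0.17) and 3 of 4 (median 0.15) for these lists. Of 4 heart markers only 1, Myh6, was tested (log2 fold change 0.15). The part of these cell types in the members' values was not tested, and in bulk muscle a different number of cells and a different amount of RNA per cell cannot be told apart.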

How the data were processed

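RNA was measured in 3 farnesol and 3 vehicle libraries, grouped by their titles. The titles call the libraries biological replicates. Whether these were separate mice is not in the labels, and p-values therefore measure only how the 6 libraries vary. The authors deposited raw counts per gene symbol. The submitters' processing notes name Bowtie2, bedtools and mm10, with versions, annotation, strand and the handling of reads with several matches not given in the sources used here. Counts of 35 repeated symbols were summed over 23282 features. Counts of Tsix were 95.9% to 99.0% of those of Xist, its partner on the opposite strand, so the counting did not separate strands, and 7 members overlap such a gene in the tables. Within their last 300 bases, 15 members match a transcript of another gene. For Uqcrc2 that gene is Pdzd9, which overlaps it on the opposite strand.

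Counts were tested with edgeR 4.0.16 in R 4.3.3 over all genes: filterByExpr, TMM scaling, glmQLFit with robust estimation and glmQLFTest, with p-values adjusted by Benjamini-Hochberg and called under 0.05. The common biological coefficient of variation was 25.7%, and the script was tested on simulated data. Alternatives used DESeq2 1.42.0, limma 3.58.1, other scalings and filters, a replicate block, a length correction (loess of span 0.3) and each library left out. A count of 0 allows up to 3 counts, or 0.236 to 0.303 CPM, for counting error only. Transcript lengths are those of the longest principal transcript in GENCODE vM21, and positions are 1-based. The members, the lists of related genes and markers and the rule for genes given in every library (in each complex the highest mean, the 2 smallest p-values and the lowest fold change, plus the c ring) were chosen with earlier results of these data known. Sdhd, Cycs, Cox7c, Atp5s, Atp5sl and the peripheral stalk genes outside that rule are given in every library too, chosen after their values were seen. Values of the lists without farnesol library 1 were also added after the data were seen. Of each related list up to 3 genes of smallest p were eligible for naming, and Myh2 was added for its part in the slow fibre sums.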

Additional observations from a re-analysis of the deposited data

How the results depend on the processing

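Under all 17 alternatives 31 to 35 members were above 0 and 0 passed the adjusted threshold. Genes past it numbered 13 without a low-count filter and 0 to 3 with a library left out (3 without vehicle library 2). Members with an unadjusted p under 0.05 numbered 1 with library totals alone, 2 with the length correction, 2 with the replicate block and length correction together, 0 with the length correction without farnesol library 1, and 0 to 6 with a library left out. The share of all genes under that limit is not given for the alternatives. These counts therefore do not show whether the members changed more than other genes did. The median log2 fold change of all members was 0.08 in each of the 3 fits with the length correction and 0.10 to 0.23 with a library left out. That of ATP synthase was 0.09 with the length correction, 0.09 with the block added, 0.10 with the length correction made without farnesol library 1, and 0.13 to 0.26 with a library left out. That of complex IV was 0.05 with the length correction without farnesol library 1. That of complex II was -0.05 to 0.20 with a library left out, below 0 without vehicle library 1. The cause was not tested.

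Some uncalled genes changed sign. Sdha was 0.01 with library totals alone, 0.00 with limma-voom, 0.00 with the replicate block, 0.01 with the length correction, 0.01 with both, and -0.09 to 0.05 with a library left out. Atp5g3 was -0.03 with the length correction, -0.04 with the block added, -0.07 with the length correction made without farnesol library 1, and -0.02 to 0.20 with a library left out. Atp5c1 was 0.00 with the length correction without farnesol library 1 and -0.16 to 0.03 with a library left out. Leaving out a library gave -0.10 to 0.01 for Uqcrc1 and -0.01 to 0.17 for Sdhc.

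The titles number the replicates alike in both groups, while the column headings of the counts do so only in part. Libraries with the same number in their titles correlated at 0.04, 0.06 and -0.02 in their deviations. The numbers were therefore not taken to pair them. With the replicate block the median of all members was 0.20, with 6 members at an unadjusted p under 0.05 and no gene past the adjusted threshold. With 3 libraries a group, the SE of log2 fold changes was 0.14 to 0.18 for the subunits other than Sdhd, so log2 differences of the size of the members' median were not detectable in single genes.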
